A study of Mus musculus with 69 samples.

Results

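The genes described here are 46 mouse genes of fatty acid oxidation and other known targets of the nuclear receptor PPAR-alpha. They were chosen by name, with earlier results of these data known, and were found once in each of 4 deposited tables. The tables list 55487 genes at 24 h and 53700 genes at 72 h. The Cyp4a genes and the genes of ketone body synthesis were not among them. Expression was measured by RNA-seq in 69 libraries made from hand-dissected kidney tubules of wild-type male C57BL/6 mice, operated on at an age of 7 weeks. The dissected segments were PT-S1, where the proximal tubule begins, and CCD, the collecting duct of the cortex. Mice had a sham operation or unilateral nephrectomy (UNx), in which a kidney is excised, and the tubules were taken 24 h or 72 h later. No group carried an added allele or drug per the labels. At 24 h, PT-S1 was measured in 3 sham animals (8 libraries) and 4 UNx animals (9 libraries), and CCD in 4 sham animals (8 libraries) and 3 UNx animals (7 libraries). At 72 h, PT-S1 was measured in 5 sham and 5 UNx animals (12 libraries each), and CCD in 4 sham animals (7 libraries) and 4 UNx animals (6 libraries). Whether PT-S1 and CCD came from the same mice is not stated in the labels.

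Fatty acids are the main fuel of the proximal tubule. They enter the cell with the help of CD36 and FATP2 (the product of Slc27a2), are bound by FABP proteins, joined to coenzyme A, and carried into mitochondria as carnitine esters. In the mitochondrial matrix, each round of beta-oxidation passes electrons to the respiratory chain through the electron transfer flavoprotein, and very long chains are shortened first in peroxisomes. PPAR-alpha, bound to DNA together with a retinoid X receptor (RXR), is switched on by fatty acids and raises the transcription of genes at each of these steps. Its usual binding site is a DR1 element, a pair of AGGTCA motifs in the same direction with 1 base between them.

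Values are TPM, an abundance corrected for gene length and scaled to the same total in every library, so the sequencing depth is not known and no counting error was computed. Each library held between 9247 and 14875 genes at 1 TPM or more. The 46 members took between 0.348% and 1.81% of the TPM in PT-S1 libraries and between 0.577% and 0.804% in CCD libraries. The markers matched the labels: the 6 S1/S2 markers summed to 6652 TPM or more in every PT-S1 animal and to 72.5 TPM or less in every CCD animal, and the 6 principal cell markers, Aqp2 among them, summed to 18609 TPM or more in every CCD animal. In 3 of the 4 tables some libraries stood apart, with a median correlation with the other libraries of that table under 0.92. They were 1 of the 3 libraries of PT-S1 24 h sham animal 1 (0.824) and of sham animal 3 (0.904), 1 of the 2 of PT-S1 72 h UNx animal 1 (0.825) and of UNx animal 2 (0.844), and 1 of the 2 of CCD 72 h sham animal 1 (0.914). CCD 24 h had no such library. Each animal is represented by the mean log2(TPM + 1) of its libraries, and UNx was compared with sham animals with limma. The TPM of a gene in an animal is this mean turned back to TPM, which a single high library raises less than a plain mean. Marker sums of an animal are plain means of its libraries. A change is the UNx mean minus the sham mean of these values, so changes of genes with low TPM are understated. Because these are tubules in bulk, fewer cells of a type and less RNA per cell cannot be told apart.

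The sham animals show how unevenly the pathway was expressed along the nephron before any comparison with UNx. The tables of the segments were normalized separately, so the levels are given side by side with no test. At 24 h, 42 of the 46 members were above 10 TPM in sham PT-S1 and 40 in sham CCD, and 30 were higher in PT-S1. The highest member of sham PT-S1 was Slc27a2, the fatty acid transport protein FATP2, at 1504 ± 403 TPM (SD, n = 3) against 41.0 ± 13.5 TPM (SD, n = 4) in sham CCD. Etfb, the beta subunit of the electron transfer flavoprotein, was next at 1343 ± 281 TPM, followed by Ech1, a dienoyl-CoA isomerase, at 1293 ± 194 TPM and Acaa2, the mitochondrial thiolase, at 905 ± 113 TPM. The animal ranges of Etfb, Ech1 and Slc27a2 overlapped in sham PT-S1, so their order is not set beyond the spread. The same genes Etfb, Ech1 and Acaa2 were among the 4 highest members of sham CCD, at 744, 634 and 439 TPM. There the highest was Ucp2, a mitochondrial carrier of the uncoupling protein family, at 1076 ± 129 TPM, against 12.2 ± 7.04 TPM in sham PT-S1.

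Members with the greatest contrast between segments did not all lean to the proximal side. The thioesterases Acot12 and Acot4 were at 86.2 and 44.2 TPM in sham PT-S1 and at 2.21 and 1.46 TPM in sham CCD at 24 h. The peroxisomal thiolase Acaa1b was at 171 and 7.60 TPM, and the carnitine transporter Slc22a5 at 218 and 34.0 TPM. Pdk4, the kinase that switches off pyruvate dehydrogenase, went the other way, with 2.03 TPM in sham PT-S1 and 98.6 TPM in sham CCD. The monoglyceride lipase gene Mgll was at 16.6 and 96.4 TPM, and Cpt1b, the muscle form of the carnitine acyltransferase at the outer membrane, at 0.242 and 12.5 TPM. Fabp1, the liver-type fatty acid binding protein, was found at 7.18 TPM in sham PT-S1 and was listed at 0 in all sham CCD animals at 24 h but 1, which had 0.114 TPM. At 72 h, 28 of the 46 members were higher in sham PT-S1 than in sham CCD. Sham PT-S1 itself had 41 of the 46 members higher at 24 h than at 72 h, for example Cpt1a, the liver-type acyltransferase, at 180.4 and 83.0 TPM. The animals, libraries and tables all differ between the times.

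**Figure D1:**
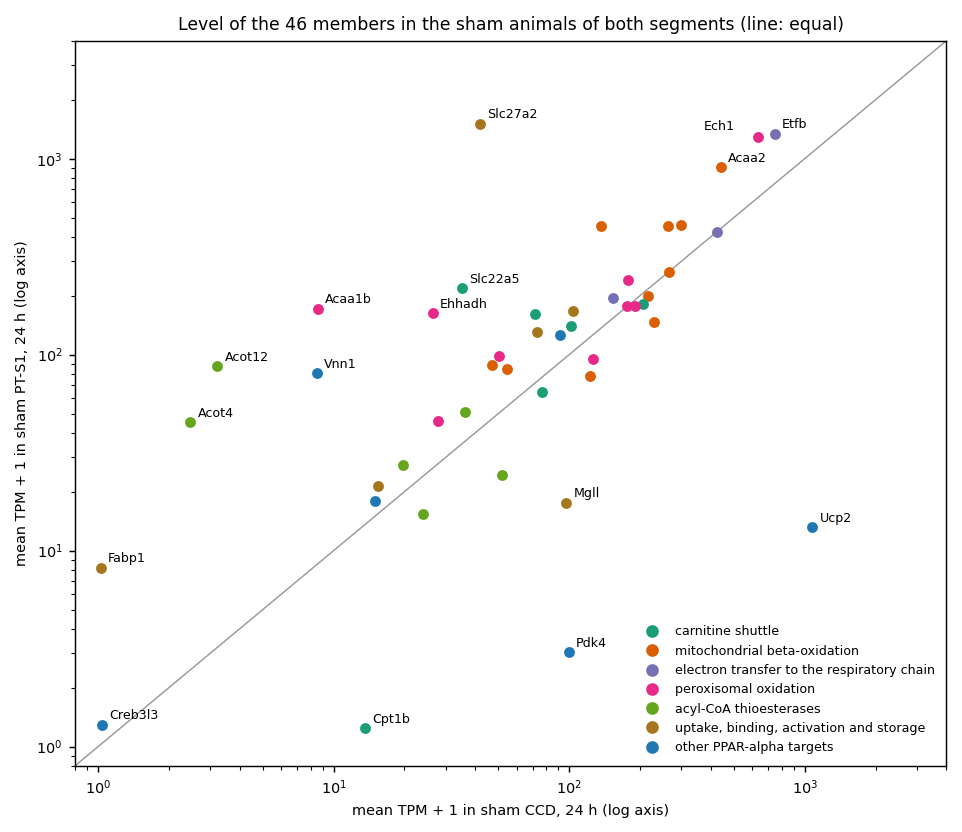
Mean TPM + 1 of each of the 46 members in the sham animals at 24 h, CCD on the horizontal and PT-S1 on the vertical axis (both log axes), coloured by role, with the line of equal level. Of the 46, 30 lie above the line, while Ucp2, Pdk4, Mgll and Cpt1b lie far below it.

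No member passed the adjusted test in any of the 4 comparisons of UNx with sham. With limma and Benjamini-Hochberg adjustment over all tested genes at a threshold of 0.05, the background shares called were 0% of genes in PT-S1 24 h, 0% in PT-S1 72 h, 0.987% in CCD 24 h and 0.595% in CCD 72 h. At an unadjusted limma p under 0.05 there were 19 members of 45 tested in PT-S1 24 h (background 17.8% of genes), 2 of 44 in PT-S1 72 h (20.5%), 11 of 44 in CCD 24 h (15.5%) and 4 of 43 in CCD 72 h (7.49%). Members with a mean under 1 TPM were not tested. These were Creb3l3, which encodes a liver transcription factor and was under 1 TPM in every animal of each table, in addition Cpt1b in PT-S1 72 h, Fabp1 in both CCD tables and Acot12 in CCD 72 h. All 19 in PT-S1 24 h had higher means in UNx, while among all genes at that threshold 308 were higher and 1801 lower. The median change of the members was 0.44 in PT-S1 24 h, -0.14 in PT-S1 72 h, 0.062 in CCD 24 h and 0.048 in CCD 72 h, beside medians over all tested genes of -0.19, -0.29, -0.038 and 0.010. The PT-S1 tables are thus off centre, and a median-ratio scaling moved the median of all genes to -0.0034 at 24 h and to 0.019 at 72 h. For this reason changes in PT-S1 are also given relative to the median of all genes.

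**Figure D2:**
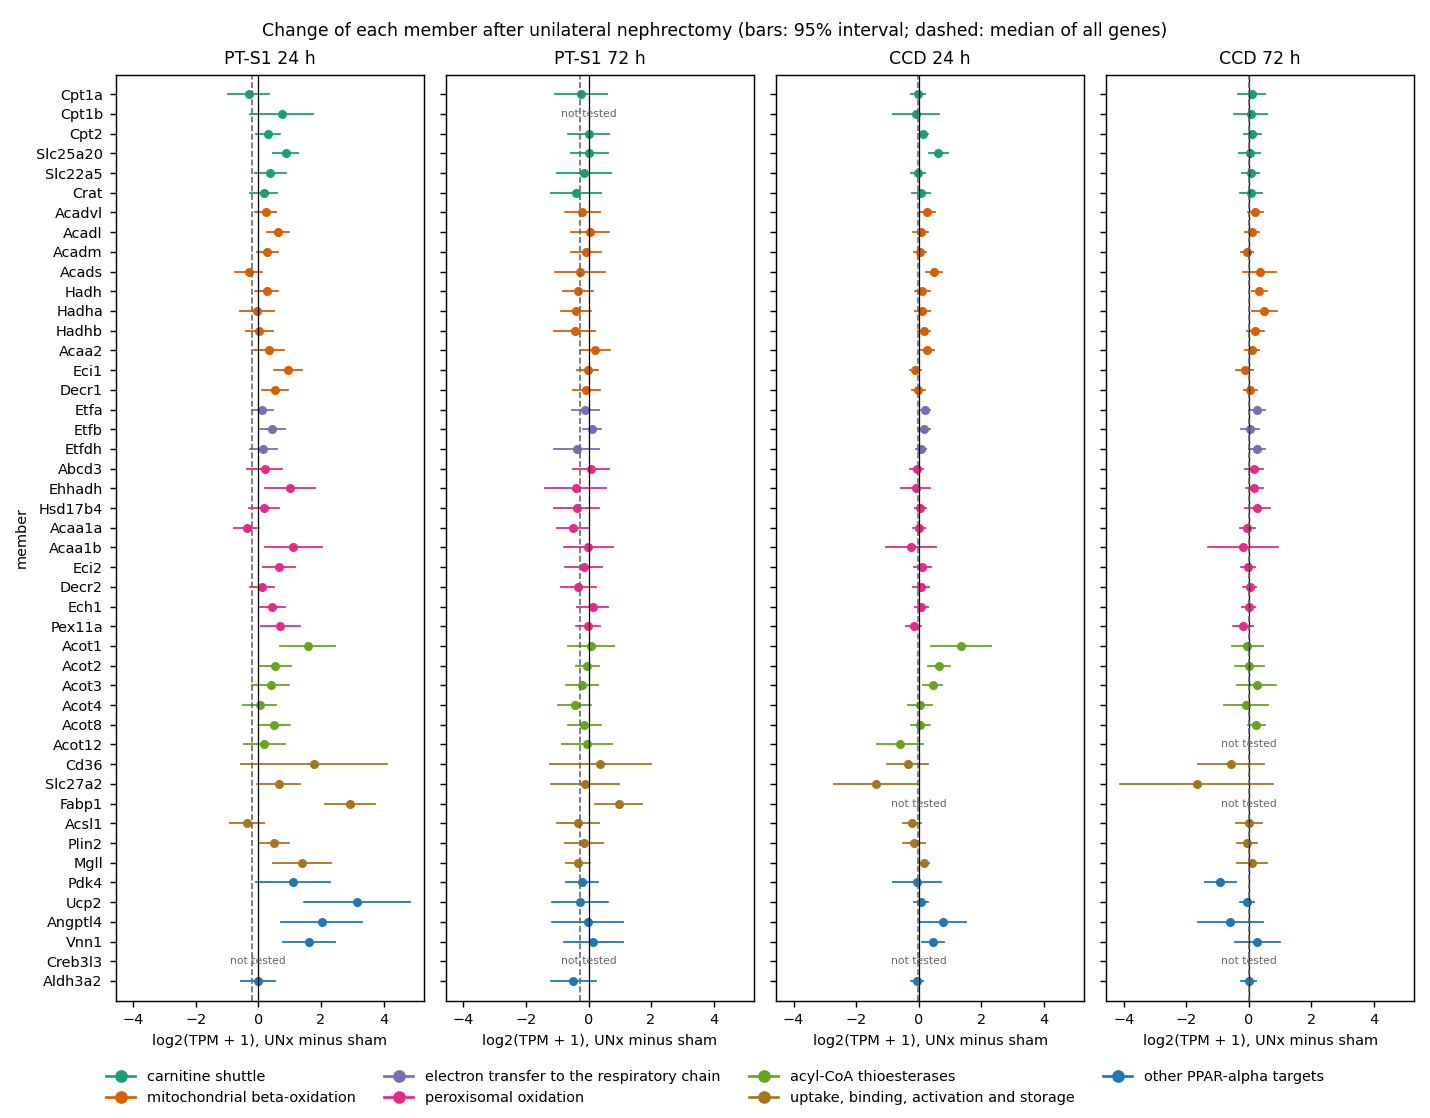
Change of every member (UNx minus sham, log2(TPM + 1)) in the 4 comparisons, with 95% limma intervals, coloured by role. The solid line marks 0 and the dashed line the median of all genes. In PT-S1 24 h, 39 of 45 points lie right of 0, and in PT-S1 72 h 11 of 44.

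In PT-S1 24 h, 13 of the 45 tested members had every UNx animal above every sham animal (28.9%, against a background of 2.79% of genes), and no member had every UNx animal below (background 12.1%). These 13 were Slc25a20, Acadl, Acadm, Eci1, Decr1, Etfb, Eci2, Acot1, Fabp1, Mgll, Ucp2, Angptl4 and Vnn1. Without the libraries that stood apart there were 11 such members (background 1.65%), and the median change of the members was 0.34. With median-ratio scaling there were 20, beside a background of 8.40%. Of the 45 members, 39 had a higher mean in UNx, against 29.1% of all genes, and 41 lay above the median of all genes. The 4 below it were Cpt1a, Acads, Acaa1a and Acsl1, with relative changes of -0.12, -0.12, -0.18 and -0.18. Since the members were chosen with earlier results of these data known, their shares beside the background are descriptive. This holds for the other comparisons too.

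Among genes of uptake, binding, activation and storage, Fabp1 (ENSMUSG00000054422) had the smallest adjusted p of all members. It was at 4.11, 8.82 and 8.63 TPM in the sham animals and 48.0, 68.7, 106 and 34.0 TPM in the UNx animals. The groups lay far apart, and in single libraries too, with 1.01 to 10.8 TPM in the 8 sham libraries and 32.0 to 107 TPM in the 9 UNx libraries. This was a change of 2.93 with an SE of 0.37 (limma adjusted p = 0.109, and 3.12 from the all-gene median). The gene passed the test when UNx animal 3 was left out (change 2.65, limma adjusted p = 0.0182) or UNx animal 4 (3.19, limma adjusted p = 0.0165). Over all animals left out in turn its limma adjusted p ranged from 0.0165 to 0.672. Over the alternatives other than left-out animals it ranged from 0.000437 to 0.217. Mgll, which splits the last fatty acid from stored glycerides, was at 14.5, 12.7 and 22.4 TPM in the sham animals and 33.6, 35.0, 114 and 27.6 TPM in the UNx animals. Every UNx animal was above the sham animals, and UNx animal 3 stood far above the other UNx animals, for a change of 1.40 with an SE of 0.42 (limma adjusted p = 0.254, and 1.59 from the all-gene median). Plin2, a coat protein of lipid droplets, overlapped between groups, with 111 to 163 TPM in sham and 142 to 235 TPM in UNx animals. The uptake genes Cd36 and Slc27a2 overlapped as well. Cd36 ranged from 6.25 to 27.8 TPM in sham and from 7.12 to 427 TPM in UNx animals, with the largest SE of the tested members (1.05), and Slc27a2 from 1201 to 1962 and from 1335 to 3475 TPM. Acsl1, which joins long-chain fatty acids to coenzyme A, had a lower mean in UNx (121 ± 10.8 TPM) than in sham (166 ± 67.8 TPM), with overlapping animals. Both libraries that stood apart were extreme for it among the sham libraries, at 737 TPM in animal 1 and 37.5 TPM in animal 3, and the change was -0.37 with them and -0.34 without them.

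In the carnitine shuttle the inner-membrane carrier stood out from the acyltransferases. Slc25a20 (ENSMUSG00000032602), which exchanges acylcarnitine for carnitine across the inner membrane, was at 60.2, 65.9 and 63.4 TPM in the sham animals and 109, 101, 159 and 104 TPM in the UNx animals. The sham animals were within a narrow range and all UNx animals above it, for a change of 0.87 with an SE of 0.18 (limma adjusted p = 0.228, and 1.06 from the all-gene median). Cpt2, the matrix acyltransferase, overlapped, at 196, 152 and 134 TPM in the sham animals and 219, 194, 207 and 176 TPM in the UNx animals. The outer-membrane enzyme Cpt1a, usually taken as the rate-limiting step, had the opposite sign with 274, 160.2 and 107 TPM in sham and 177, 136, 138 and 99.6 TPM in UNx animals, a change of -0.31 (relative -0.12). The libraries that stood apart held its highest and lowest sham values, 755 and 36.3 TPM, and without them the change was -0.32. Slc22a5 and Crat, the carnitine acetyltransferase, had changes of 0.38 and 0.17, with limma adjusted p = 0.359 and 0.618. These changes were 0.24 and 0.0025 without the libraries that stood apart.

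The mitochondrial spiral of beta-oxidation was not uniform in PT-S1 24 h: 8 of 10 members had a higher UNx mean, and 4 of 10 had groups that did not overlap. The 4 were the medium- and long-chain acyl-CoA dehydrogenases and the auxiliary enzymes Eci1 and Decr1, which act on unsaturated fatty acids. Eci1 (ENSMUSG00000024132), an enoyl-CoA isomerase, was at 210.4, 269 and 312 TPM in the sham animals and 510.5, 466, 655 and 407 TPM in the UNx animals, for a change of 0.94 with an SE of 0.20 (limma adjusted p = 0.228, and 1.14 from the all-gene median). Its lowest UNx animal was above its highest sham animal. Acadl, the long-chain dehydrogenase, was at 187, 191 and 216 TPM in the sham animals and 315, 300.2, 351 and 256 TPM in the UNx animals, a change of 0.62 with an SE of 0.16 (limma adjusted p = 0.246, and 0.81 from the all-gene median). Decr1, the dienoyl-CoA reductase, was at 94.6, 74.7 and 92.9 TPM in the sham animals and 147, 125, 149 and 96.4 TPM in the UNx animals, where the lowest UNx animal was just above the highest sham animal. Acadm, the medium-chain dehydrogenase, was similarly close, at 467, 441 and 446 TPM in the sham animals and 592, 618, 532 and 469 TPM in the UNx animals. Its change was 0.28, or 0.16 without the libraries that stood apart. The trifunctional protein that carries out the remaining steps on long chains did not go with them: Hadha was at 87.7, 73.9 and 68.3 TPM in sham and 76.2, 68.9, 114 and 50.4 TPM in UNx animals, and Hadhb had a change of 0.03. Acads, the short-chain dehydrogenase, was lower in the UNx mean, with a change of -0.31 (relative -0.12), with overlapping animals.

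Electrons from these dehydrogenases pass through 3 members. Etfb was at 1065, 1335 and 1628 TPM in the sham animals and 1983, 1630.2, 1893 and 1754 TPM in the UNx animals, where UNx animal 2 and sham animal 3 differed by little, for a change of 0.45 (relative 0.64, limma adjusted p = 0.262). Its partner subunit Etfa had a change of 0.13 and Etfdh, the membrane enzyme that hands the electrons to ubiquinone, of 0.15, and both overlapped. They were -0.064 for Etfa and 0.08 for Etfdh without the libraries that stood apart.

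Of the 9 peroxisomal members, 8 had a higher mean in UNx PT-S1 at 24 h, but for a single one, Eci2, the groups did not overlap. Eci2, a peroxisomal enoyl-CoA isomerase, was at 92.1, 92.8 and 97.0 TPM in the sham animals and 146, 138, 228 and 109 TPM in the UNx animals, with UNx animal 3 highest and UNx animal 4 just above the sham animals. Ehhadh, the bifunctional enzyme and a long-known PPAR-alpha target, was at 241, 105 and 137 TPM in the sham animals and 294, 371, 494 and 168 TPM in the UNx animals. Only UNx animal 4 was within the sham range, and the change was 1.02 (SE 0.36, limma adjusted p = 0.254). The paralogous thiolases parted in sign, with 1.12 for Acaa1b and -0.38 for Acaa1a (relative 1.31 and -0.18). Their sequences are similar, so reads could be split between them and these values are uncertain. Pex11a, which takes part in the division of peroxisomes, was at 38.8, 35.8 and 59.7 TPM in the sham animals and 62.7, 55.7, 124 and 60.9 TPM in the UNx animals, so that sham animal 3 lay within the UNx range and UNx animal 3 far above all others. Ech1 had a change of 0.44 and the importer Abcd3 of 0.20 (0.35 without the libraries that stood apart).

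The acyl-CoA thioesterases, which release free fatty acids from coenzyme A, all 6 had higher means in UNx PT-S1 at 24 h. Acot1, the cytosolic form, was at 25.2, 12.2 and 41.8 TPM in the sham animals and 72.4, 48.7, 125 and 61.6 TPM in the UNx animals, without overlap, a change of 1.58 with an SE of 0.39 (limma adjusted p = 0.243, and 1.77 from the all-gene median). Acot2, its mitochondrial neighbour, was at 17.8, 11.5 and 14.0 TPM in the sham animals and 25.3, 15.9, 25.9 and 19.1 TPM in the UNx animals, where a single sham animal lay within the UNx range. Acot1, Acot2, Acot3 and Acot4 form a family of similar genes, so the division of reads among them is uncertain. Changes of the other 4 members of this group were between 0.04 for Acot4 and 0.50 for the peroxisomal Acot8.

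The remaining PPAR-alpha targets had the highest median change of any role in PT-S1 24 h, 1.61 over 5 tested genes. Ucp2 (ENSMUSG00000033685) was at 9.18, 7.12 and 20.2 TPM in the sham animals and 84.9, 104, 517 and 27.5 TPM in the UNx animals. All UNx animals were above all sham animals, and UNx animal 3 was far above the other UNx animals, for a change of 3.15 with an SE of 0.76 (limma adjusted p = 0.243, and 3.35 from the all-gene median). Vnn1 (ENSMUSG00000037440), a pantetheinase, was at 103, 71.1 and 63.9 TPM in the sham animals and 321, 226, 399 and 112 TPM in the UNx animals, with UNx animal 4 just above the highest sham animal, a change of 1.61 with an SE of 0.37 (limma adjusted p = 0.228, and 1.80 from the all-gene median). It passed the test when that animal was left out (change 1.97, limma adjusted p = 0.0328). Over all animals left out in turn the limma adjusted p of Vnn1 ranged from 0.0328 to 0.672. Angptl4, a secreted inhibitor of lipoprotein lipase, was at 21.6, 6.32 and 22.6 TPM in the sham animals and 141, 29.2, 112 and 33.4 TPM in the UNx animals, a change of 2.02 (relative 2.21, limma adjusted p = 0.254). Pdk4 was low throughout and overlapped, at 2.52, 0.759 and 2.81 TPM in the sham animals and 8.50, 4.19, 12.5 and 1.29 TPM in the UNx animals. Aldh3a2, an aldehyde dehydrogenase of lipid aldehydes, had a change of -0.0074 (relative 0.19).

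**Figure D3:**
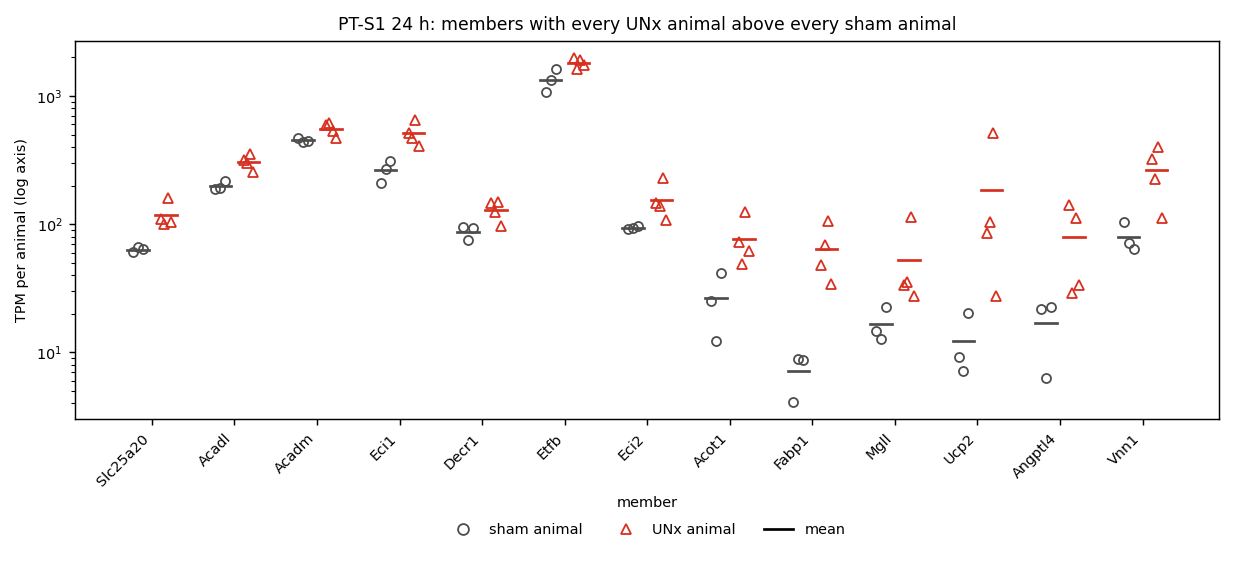
TPM per animal (log axis) of the 13 members whose 4 UNx animals (triangles) all lay above the 3 sham animals (circles) in PT-S1 24 h, with group means as lines. The gap between the groups is widest for Fabp1, then for Slc25a20, while Decr1, Acadm and Etfb nearly touch.

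The animals contributed unequally to these differences. Taking each animal's median deviation from the sham mean over the 45 members, UNx animals 1 to 4 were at 0.58, 0.30, 0.58 and 0.15, and the sham animals were between -0.050 and 0.050. Over all genes the UNx animals were between -0.27 and -0.044. UNx animal 3 had the highest value of all 7 animals for 24 of 45 members, and without it the members' median change was 0.41. That animal also had the lowest summed S1/S2 markers, 6953 TPM, and the highest endothelial and erythrocyte sums, 214 and 58.3 TPM. All 6 S1/S2 markers had lower means in UNx, with sums of 11683 to 15088 TPM in sham and 6953 to 11341 TPM in UNx animals, and their part in the result was not tested. Of the 6 adipocyte markers none reached a mean of 1 TPM, the sums were between 0.015 and 0.337 TPM, and Adipoq, Lep and Cfd were under 0.1 TPM in every PT-S1 24 h library.

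Markers of the neighbouring S3 segment, which a dissection can include, varied among the PT-S1 24 h libraries. The 5 S3 markers summed to 24.7 to 122 TPM in sham and 12.95 to 284 TPM in UNx animals, and 3 of the 4 tested had higher means in UNx. In CCD 24 h the same markers summed to 96.3 to 127 TPM in sham and 73.0 to 99.2 TPM in UNx animals. The sums of the PT-S1 animals thus lay below, within and above the range of the CCD animals. The source of these sums was not tested. The libraries of UNx animal 2 were at 7.54 and 560 TPM for these markers; Cd36 was at 3.73 and 544 TPM and Ucp2 at 29.5 and 357 TPM in the same libraries. Fabp1 was at 79.0 and 59.8 TPM in them. Similarly, sham animal 3 had a library with 269 TPM of S3 markers and the highest Slc27a2 (3421 TPM) and Ucp2 (47.3 TPM) of any sham library, and 6.14 TPM of Fabp1. All 3 libraries of UNx animal 4 had S3 sums of 8.82 to 18.6 TPM, below those of at least 7 of the 8 sham libraries, with 21.6 to 34.9 TPM of Ucp2 and 32.0 to 37.3 TPM of Fabp1. The part of the S3 markers in the values of Cd36, Slc27a2, Ucp2 and Fabp1 was not tested.

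**Figure D4:**
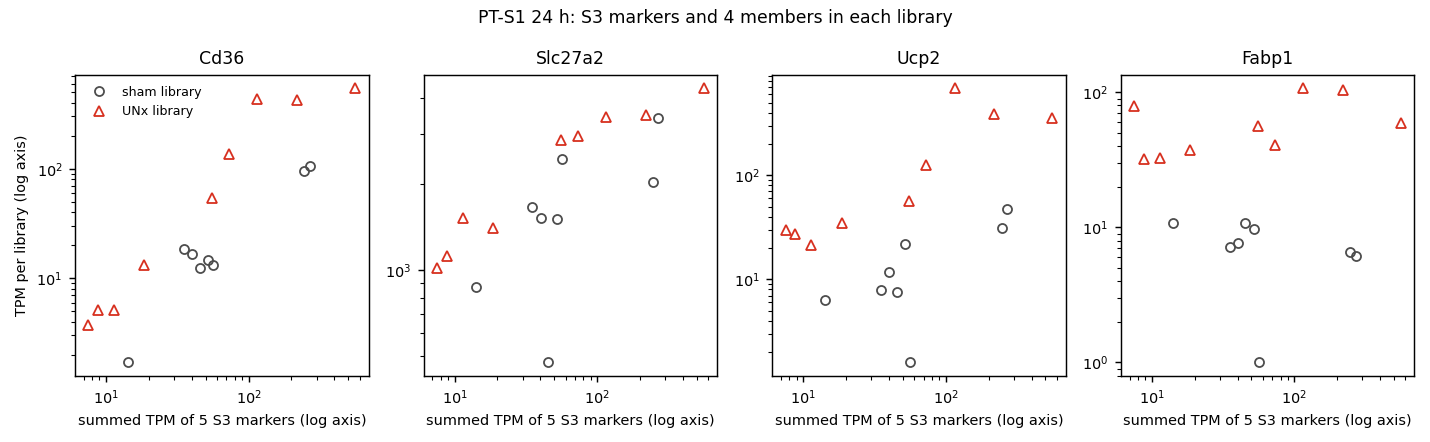
TPM of Cd36, Slc27a2, Ucp2 and Fabp1 against the summed TPM of 5 S3 markers in the 8 sham (circles) and 9 UNx (triangles) libraries of PT-S1 24 h (log axes). The UNx library with 560 TPM of S3 markers has 544 TPM of Cd36, and the Fabp1 points lie at 1.01 to 10.8 TPM in sham and 32.0 to 107 TPM in UNx libraries.

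The promoters of the members were searched for the DR1 element, since Fabp1 was the member with the clearest separation. RefSeq promoters of the mouse build GRCm38.p6, 250 bases before to 50 bases after the start of a gene, were found for 39 of the 46 members, in 44 entries. A match was a pair of AGGTCA motifs with any 1 base between them, on either strand, with at most 2 mismatches in 12 bases. Of the 44 entries, 8 (18.2%) had a match, beside 3.86% of all 32851 entries. With at most 1 mismatch there were 2 (4.55%), for Fabp1 and Acot12, beside 0.554% of all entries. These are shown up to the start of the gene, on the gene's strand, with the match in capitals; in both it lies on the opposite strand, so the capitals are its reverse complement. The Fabp1 stretch is chr6:71199629-71199826 and the Acot12 stretch chr13:91741271-91741511, both on the plus strand.
Fabp1: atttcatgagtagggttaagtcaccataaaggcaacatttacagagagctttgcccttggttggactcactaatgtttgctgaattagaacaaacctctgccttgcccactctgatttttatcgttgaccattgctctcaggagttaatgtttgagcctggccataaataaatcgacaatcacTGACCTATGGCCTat
Acot12: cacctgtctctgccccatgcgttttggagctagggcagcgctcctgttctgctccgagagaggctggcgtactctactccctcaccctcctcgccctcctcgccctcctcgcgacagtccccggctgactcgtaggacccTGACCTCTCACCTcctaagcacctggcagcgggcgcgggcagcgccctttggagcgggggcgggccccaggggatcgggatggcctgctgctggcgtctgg
The Fabp1 match ends 55 bases and the Acot12 match 98 bases before the RefSeq start. Of the other matches, that of Slc25a20 lies 6 to 18 bases after the RefSeq start, and the rest lie before it. Counted from the start in the GENCODE annotation, the matches of Slc25a20, Cd36 and Creb3l3 lie inside the gene. The other matches, with 2 mismatches each, are given in the direction of the motif, with both copies in capitals and the spacer in lower case.
Slc25a20: AGGTGAaAGGTCG
Etfa: AGGGCAaAGGTAA
Acot4: CGGCCAaAGGTCA
Cd36: AAGTCAgAGGCCA
Plin2: AGGTCAgGGGTCC
Creb3l3: AGGGGAgAGGTCA
Among members whose groups did not overlap in PT-S1 24 h, 2 of 11 entries had a match (18.2%), as had 6 of the 33 entries of the other members (18.2%). With at most 1 mismatch it was 1 of 11 (9.09%) and 1 of 33 (3.03%), a single entry in each. Of the 13 members without overlap, Decr1, Angptl4 and Vnn1 had no promoter in the table. Acot12, which has a match as close as that of Fabp1, was at 109, 69.4 and 80.6 TPM in the sham animals and 135, 80.7, 135 and 58.8 TPM in the UNx animals, a change of 0.19. A match is a description of letters and not of binding.

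At 72 h, PT-S1 showed no member whose groups did not overlap, in either direction (background 0.236% of genes with UNx higher and 5.33% lower). Of the 44 tested members 11 had a higher mean in UNx, and 31 lay above the median of all genes, which itself was below 0, with 17.0% of genes higher. In contrast, 39 of 44 had a higher mean without the libraries that stood apart, beside 45.98% of genes. The sign here went with the libraries that stood apart: UNx animal 1 was lowest for 34 of 44 members, and its median deviation from the sham mean was -0.90, with -0.55 for UNx animal 2, while UNx animals 3, 4 and 5 were at 0.14, 0.23 and 0.30. Over all genes UNx animals 1 and 2 were at -0.70 and -0.62. Without the libraries that stood apart the members' median change was 0.22 beside -0.021 for all genes, and with median-ratio scaling it was 0.24 beside 0.019. Among sham animals, animal 5 was highest for 20 of 44 members; its S3 marker sum was 485 TPM, against 12.2 to 95.3 TPM in the other sham animals.

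Fabp1 had the largest positive change at 72 h in PT-S1. It was at 4.95, 9.80, 4.43, 12.8 and 5.93 TPM in the sham animals and 23.9, 24.8, 7.33, 12.6 and 12.1 TPM in the UNx animals, for a change of 0.97 with an SE of 0.35 (limma adjusted p = 0.237, and 1.26 from the all-gene median). The highest sham animal was above the lowest UNx animals, and UNx animals 1 and 2, which hold the libraries that stood apart, were the highest. Without those libraries the change was 0.53. Acaa1a was lower in the UNx mean, at 278, 294, 252, 238 and 273 TPM in the sham animals and 129, 126, 246, 249.8 and 232 TPM in the UNx animals, with UNx animals 1 and 2 far below the rest, a change of -0.50 with an SE of 0.23 (limma adjusted p = 0.242, and -0.22 from the all-gene median). Its change was -0.09 without the libraries that stood apart. The same pair of animals was lowest for Hadha, at 39.3, 45.2, 38.4, 46.4 and 50.5 TPM in the sham animals and 23.4, 23.5, 38.4, 37.1 and 48.8 TPM in the UNx animals, a change of -0.40 that was -0.02 without those libraries. Acot4 (37.9, 35.6, 31.8, 34.4 and 32.7 TPM in the sham animals and 15.1, 17.8, 28.2, 38.4 and 34.3 TPM in the UNx animals) had a change of -0.43 in all libraries and 0.030 without those that stood apart. Mgll had a change of -0.32 (relative -0.03) and of 0.014 with quantile normalization, or -0.02 without the libraries that stood apart. Members that had been far apart at 24 h overlapped widely, as in Ucp2, at 9.73, 17.0, 14.7, 3.18 and 17.6 TPM in sham and 4.95, 5.53, 9.57, 13.8 and 13.7 TPM in UNx animals, and Slc25a20, at 32.6 to 51.9 and 22.2 to 61.3 TPM.

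In CCD 24 h, 9 of 44 tested members had all UNx animals above all sham animals (20.5%, background 5.55% of genes), and no member had all UNx animals below (background 9.51%). The 9 were Cpt2, Slc25a20, Acads, Acaa2, Etfa, Etfb, Acot2, Acot3 and Vnn1. The carnitine shuttle, mitochondrial beta-oxidation, the electron transfer flavoprotein and the thioesterases held 2 each. Slc25a20, Etfb and Vnn1 were also among the 13 of PT-S1 24 h. They are 23.1% of those 13, beside 20.5% of all tested members in CCD 24 h. They are 33.3% of these 9, beside 28.9% of all tested members in PT-S1 24 h. The shared members were thus close to the shares over all tested members.

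Slc25a20 had the smallest adjusted p of all members in CCD 24 h. It was at 59.2, 89.3, 72.6 and 80.4 TPM in the sham animals and 112, 112 and 124 TPM in the UNx animals, where the UNx animals were close together above the sham animals. The change was 0.63 (SE 0.13, limma adjusted p = 0.0655), and it passed the test with median-ratio scaling and when each library entered with the animal as a random effect. Over the alternatives other than left-out animals its limma adjusted p ranged from 0.00912 to 0.190. Acads was at 49.1, 60.1, 45.9 and 58.3 TPM in the sham animals and 81.8, 70.7 and 70.6 TPM in the UNx animals, without overlap, which gives a change of 0.48 (SE 0.11, limma adjusted p = 0.0871). Its change in PT-S1 at the same time was -0.31. Acot2 was at 19.5, 28.7, 25.4 and 18.0 TPM in the sham animals and 34.9, 34.3 and 38.0 TPM in the UNx animals, a change of 0.64 (limma adjusted p = 0.0929), and Acot3, a peroxisomal form, at 54.5, 49.97, 46.2 and 52.5 TPM in the sham animals and 73.0, 81.7 and 55.5 TPM in the UNx animals, with sham animal 1 just below UNx animal 3, a change of 0.44 (limma adjusted p = 0.149). Acot1 had a larger change, 1.35, but sham animal 2 was above UNx animal 2, and values were 9.03, 32.2, 23.7 and 9.97 TPM in the sham animals and 39.4, 31.5 and 64.8 TPM in the UNx animals. As in PT-S1, the division of reads within this family is uncertain.

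Of the other members without overlap in CCD 24 h, 4 had changes under 0.3 and Vnn1 one of 0.46. Etfa was at 417, 444, 405 and 431 TPM in the sham animals and 506, 468 and 484 TPM in the UNx animals and Etfb at 804, 802, 693 and 678 TPM in the sham animals and 848, 829 and 817 TPM in the UNx animals, changes of 0.20 and 0.16. Acaa2 had a change of 0.28 and Cpt2 of 0.13; for Acaa2 the highest sham animal (518 TPM) and the lowest UNx animal (519.9 TPM) nearly met. Vnn1 was low, at 6.71, 8.09, 8.30 and 6.89 TPM in the sham animals and 13.3, 8.72 and 10.3 TPM in the UNx animals. Ucp2 and Mgll, which had large changes in PT-S1 24 h, were at 1177, 1194, 997 and 936 TPM in the sham animals and 1098, 1131 and 1123 TPM in the UNx animals for Ucp2, a change of 0.06, and 89.8 to 106 and 106 to 109.9 TPM for Mgll, a change of 0.16. The sign of the Ucp2 change turned without sham animal 4 (-0.0025). Slc27a2 had the lowest change, -1.35, at 54.5, 35.2, 24.8 and 49.4 TPM in the sham animals and 4.45, 15.2 and 43.3 TPM in the UNx animals. The summed S1/S2 markers in these tubules were 24.2 to 72.5 TPM in sham and 17.6 to 46.4 TPM in UNx animals, with UNx animal 1 lowest in both, and their part in the Slc27a2 values was not tested. Principal cell markers summed to 21499 to 47270 TPM in sham and 44576 to 63809 TPM in UNx animals. Of these 6 markers 4 had higher means in UNx, none without overlap. Intercalated cell markers summed to 2836 to 3254 TPM in sham and 3118 to 3716 TPM in UNx animals. Of these 6 markers 5 had higher means in UNx, 1 of them without overlap. No marker of either type passed the adjusted limma test. The part of these cell types in the result was not tested. Thick ascending limb markers reached 3506 TPM in sham animal 2, against 85.5 to 784 TPM in the other 6 animals. Without that animal 14 members had all UNx animals higher (background 7.15%).

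**Figure D5:**
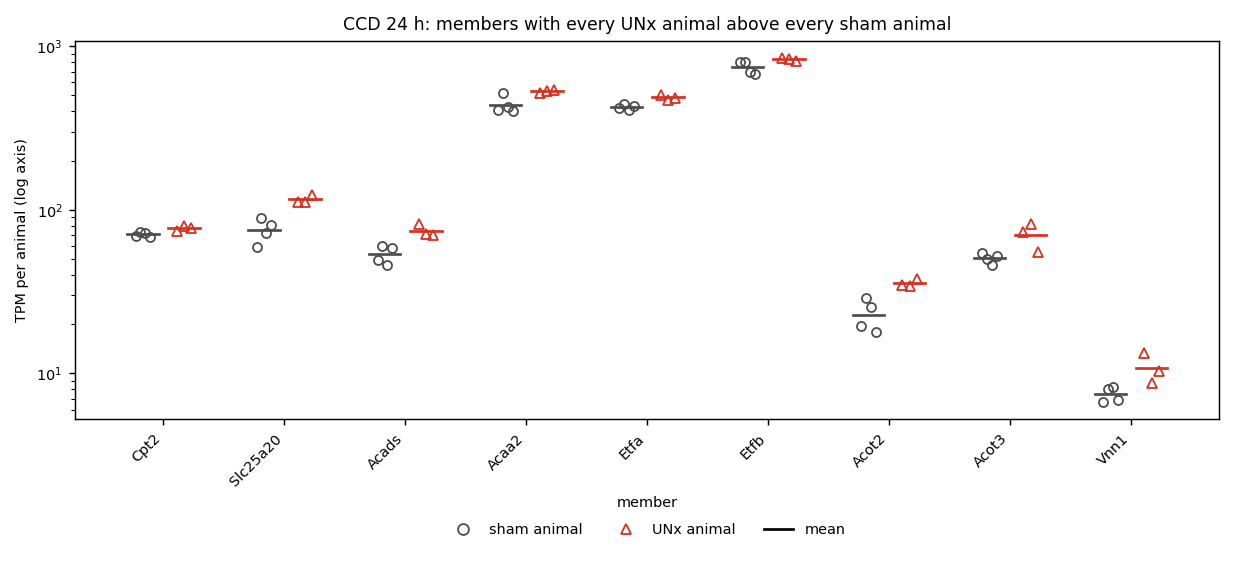
TPM per animal (log axis) of the 9 members whose 3 UNx animals (triangles) all lay above the 4 sham animals (circles) in CCD 24 h, with group means as lines. The gap between the groups is widest for Slc25a20, Acot2 and Acads, while Acot3 and Acaa2 nearly touch.

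In CCD 72 h the members were close to the background. A single member, Etfa, had all UNx animals above sham (background 3.23% of genes), and a single one, Pdk4, had all UNx animals below (1.54%). Pdk4 was at 25.0, 22.5, 47.8 and 34.1 TPM in the sham animals and 16.1, 19.3, 12.9 and 16.3 TPM in the UNx animals. The highest UNx animal was below the lowest sham animal, which gives a change of -0.91 (SE 0.23, limma adjusted p = 0.180). Without the library that stood apart the change was -1.08 (limma adjusted p = 0.0527), and with sample weights -1.09 (limma adjusted p = 0.0307). Over the alternatives other than left-out animals its limma adjusted p reached 0.416. With each animal left out in turn the limma adjusted p ranged from 0.126 to 0.489. Etfa was at 480.3, 364, 492 and 480.1 TPM in the sham animals and 529, 497, 554 and 567 TPM in the UNx animals, with sham animal 2 far below the other sham animals. The 3-hydroxyacyl-CoA dehydrogenase Hadh was at 132, 106, 111 and 105 TPM in the sham animals and 157, 130.2, 142 and 143 TPM in the UNx animals, where only sham animal 1 reached the UNx range, a change of 0.34 (limma adjusted p = 0.351). Hadha was at 69.9, 93.7, 121 and 137 TPM in the sham animals and 149, 132, 148 and 149 TPM in the UNx animals, a change of 0.50, and Etfdh had a change of 0.26. Without the library that stood apart, the changes of Hadha and Etfdh were 0.36 and 0.18. Without UNx animal 2, 7 members had all UNx animals higher (background 4.95%). Slc25a20 and Acot2, apart at 24 h, had changes of 0.02 and 0.0066, or -0.02 and -0.08 without the library that stood apart. Slc27a2 varied from 1.73 to 86.9 TPM among sham animals; sham animal 1 was highest, as it was for the S1/S2 marker sum (51.1 TPM).

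Whether the response of a member differed between times or segments was tested as the difference of the changes. All animals were taken as independent, also between segments. No member passed with limma in any of 4 such comparisons. The background of adjusted calls was 0% of genes for PT-S1 24 h against 72 h, 0% for CCD 24 h against 72 h, 0.137% for PT-S1 against CCD at 24 h and 0% for PT-S1 against CCD at 72 h. At an unadjusted p under 0.05 there were 13 members of 44 (background 3.33%), 4 of 43 (4.96%), 12 of 44 (15.4%) and 2 of 42 (9.33%) in that order. Between the times in PT-S1, 41 of 44 members had a higher change at 24 h, against 62.5% of all genes, with a median difference of 0.57 (0.098 for all genes). Without the libraries that stood apart it was 25 of 44, against 28.6% of genes, with a median of 0.042 (-0.20 for all genes). With all libraries the differences included 0.96 (SE 0.25, limma adjusted p = 0.998) for Eci1, 3.43 (SE 0.91, limma adjusted p = 0.998) for Ucp2 and 1.72 (SE 0.46, limma adjusted p = 0.998) for Mgll. Without the libraries that stood apart Eci1 and Fabp1 passed (1.63% of all genes). In CCD the differences between times were 0.61 (SE 0.21, limma adjusted p = 0.968) for Slc25a20, 1.40 (SE 0.51, limma adjusted p = 0.968) for Acot1 and 0.64 (SE 0.28, limma adjusted p = 0.968) for Acot2. Between the segments at 24 h, Eci1 differed by 1.05 (SE 0.22, limma adjusted p = 0.0841). It passed without PT-S1 sham animal 3 (limma adjusted p = 0.0298), without PT-S1 UNx animal 4 (limma adjusted p = 0.0323) and without the libraries that stood apart (limma adjusted p = 0.0232). Over all animals left out in turn the limma adjusted p of Eci1 ranged from 0.0298 to 0.266. Ucp2 differed by 3.09 (SE 0.89, limma adjusted p = 0.168), and Acads by -0.79 (SE 0.23, limma adjusted p = 0.169) in the other direction. At 72 h the segments differed by -0.90 (SE 0.30, limma adjusted p = 0.495) for Hadha, -0.67 (SE 0.27, limma adjusted p = 0.495) for Hadh and 0.71 (SE 0.35, limma adjusted p = 0.495) for Pdk4. The same differences were -0.38, -0.22 and 1.07 without the libraries that stood apart.

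The rest of the pathway was given by 68 other genes in 5 groups: receptors and coregulators, other oxidation enzymes, other uptake and storage genes, other thioesterases and kinases, and peroxisome assembly. None of them passed the adjusted limma test in any table. Of 61 tested in PT-S1 24 h, 31 had a higher mean in UNx, against 29.1% of all genes, and 39 lay above the median of all genes. Their median change was 0.00029 (relative 0.19). The count with a higher mean was 19 without the libraries that stood apart, beside 22.9% of all genes. Among these 61, 2 had all UNx animals higher (3.28%, background 2.79%) and 7 all UNx animals lower (11.5%, background 12.1%), and 7 were under an unadjusted p of 0.05 (11.5%, background 17.8%). At 72 h in PT-S1, 9 of 61 had a higher mean in UNx, in CCD 24 h 33 of 64, and in CCD 72 h 45 of 63, with 5, 9 and 1 under an unadjusted p of 0.05 (8.20%, 14.1% and 1.59%, backgrounds 20.5%, 15.5% and 7.49%). Over all genes 17.0%, 41.8% and 52.2% had a higher mean in UNx, in the same order. Leaving out the libraries that stood apart, 46 of 61 had a higher mean in PT-S1 72 h (45.98% of all genes) and 36 of 63 in CCD 72 h (36.8%).

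In PT-S1 all 7 tested receptors and coregulators had lower means in UNx at 24 h and again at 72 h, and relative to the median of all genes 6 of them and all 7, respectively, were lower. All 7 at 24 h and 5 at 72 h were lower without the libraries that stood apart, and at 72 h Rxra had a change of 0.16. In CCD, 4 of 8 were lower at 24 h and 5 of 8 at 72 h. Without the library that stood apart, 1 of 8 was higher in CCD 72 h, beside 36.8% of all genes. The median change of the 8 was then -0.22, beside -0.072 for all genes. Ppara, the receptor, in PT-S1 had a change of -0.34 at 24 h (relative -0.15, limma adjusted p = 0.303) and of -0.46 at 72 h (relative -0.18, and -0.19 without the libraries that stood apart). Its partner Rxra was at 58.5, 40.9 and 27.0 TPM in the sham animals and 9.66, 8.44, 25.5 and 19.5 TPM in the UNx animals in PT-S1 24 h. All UNx animals were below all sham animals, a change of -1.43 with an SE of 0.38 (limma adjusted p = 0.254, and -1.24 from the all-gene median). In CCD 24 h Rxra had the other sign, with a change of 0.35. The coactivator gene Ppargc1a was at 179.5, 148, 146 and 185 TPM in the sham animals and 106, 129 and 117 TPM in the UNx animals in CCD 24 h, without overlap, a change of -0.48 (limma adjusted p = 0.0819), and Ppara there had a change of -0.44. In PT-S1 72 h Ppargc1a had a change of -0.75 (relative -0.46) and the corepressor gene Ncor1 of -0.60 (relative -0.31), and Ncor1 in CCD 72 h one of -0.38. Without the libraries that stood apart the PT-S1 72 h values were -0.18 for Ppargc1a and -0.42 for Ncor1, and over all alternatives other than left-out animals Ncor1 ranged from -0.60 to -0.21. Outside the receptors, Pex6 had the lowest p in PT-S1 24 h. Its product recycles the import receptor of peroxisomes, and the gene was at 56.6, 40.1 and 38.4 TPM in the sham animals and 21.8, 27.1, 27.4 and 24.5 TPM in the UNx animals, with all UNx animals lower, a change of -0.80 with an SE of 0.18 (limma adjusted p = 0.228, and -0.60 from the all-gene median). In CCD 24 h the lowest p among these genes was that of Acot7, a thioesterase, at 17.7, 17.2, 16.7 and 15.5 TPM in the sham animals and 20.8, 26.5 and 24.5 TPM in the UNx animals, with all UNx animals higher (change 0.48, limma adjusted p = 0.0734). Pdk3, a sister kinase of Pdk4, had a change of 0.21 in CCD 72 h.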

How the data were processed

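RNA was extracted with a Zymo kit and cDNA with the SMART-Seq V4 Ultra Low Input kit, per the labels' protocols. The submitters' processing notes list STAR, RSEM 1.3.3 and the build GRCm39; the annotation release is not given in the sources used here. The authors deposited TPM values per gene and library, which carry no depth. RSEM divides reads that fit several similar genes by estimation. Of the 69 columns, 47 matched 1 sample and 22 matched a group and animal only. The number after Sham or UNx in the titles was read as the animal, and p-values measure the spread between these animals. No 2 columns were identical (0 in each table).

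Libraries of an animal were averaged on log2(TPM + 1), pseudocount 1, and genes with a mean of at least 1 TPM were tested in each table with limma 3.58.1 in R 4.3.3 (two-sided, mean-variance trend, Benjamini-Hochberg over all tested genes, threshold 0.05). The fits were tested on simulated data. Differences between changes were tested in a model of 4 groups, which share 1 estimate of the spread, with all animals taken as independent. If PT-S1 and CCD came from the same mice, that pairing was not used. By rule the text names 20 members in PT-S1 24 h, the 2 of smallest p in each role and then those of smallest p. It also names the 5 of smallest p in each other table, members without overlap and 3 per difference. The 4 highest sham levels and 2 pathway genes per table are named as well. Others were chosen after their values were seen to complete a role. The members, gene lists and alternatives were chosen with earlier results of these data known. Promoters come from RefSeq GRCm38.p6, the printed stretches end before the start in GENCODE if that is earlier, and no coordinates were carried between builds.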

Additional observations from a re-analysis of the deposited data

Results flagged for a closer look

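Values far from the rest of their group were sought in the groups of 4 or 5 animals of the named genes with Dixon's criterion at 95%, which chance passes in about 1 of 20 groups. Of 63 groups 5 stood out (7.94%). In PT-S1 24 h, UNx animal 3 was at 114 TPM for Mgll, where the other UNx animals were at 27.6 to 35.0 TPM. The same animal was at 159 TPM for Slc25a20, against 101 to 109 TPM, and at 124 TPM for Pex11a, against 55.7 to 62.7 TPM. It has 2 libraries, and both were high for Mgll, at 132 and 99.6 TPM. In CCD 72 h, UNx animal 2 was at 132 TPM for Hadha, where the other UNx animals were at 148 to 149 TPM, and sham animal 2 was at 364 TPM for Etfa, against 480.1 to 492 TPM.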

How the results depend on the processing

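The alternatives were another pseudocount (0.1), other filters, quantile and median-ratio scaling, averaging TPM before the logarithm, each library with the animal as a random effect, sample weights, leaving out libraries of low correlation, leaving out each animal, and the replicate number as a block. In PT-S1 24 h the members called were 1 with quantile normalization (0.00842% of all genes called), 1 with median-ratio scaling (0.00845%), 4 with the random effect (0.842%), 17 with sample weights (12.0%) and 10 with the replicate block (0.682%); 20 had UNx higher without overlap with median-ratio scaling (8.40% of all genes). In PT-S1 72 h, 4 of 44 were called with sample weights, fewer than the 11.3% of all genes called there, 1 had UNx higher without overlap without the expression filter (0.225% of all genes), with median-ratio scaling (1.78%) or without low-correlation libraries (1.54%), and 1 had UNx lower with quantile normalization (2.19%). In CCD 24 h, 1 was called with median-ratio scaling (1.24% of all genes) and 3 with the random effect (3.52%), and in CCD 72 h 1 with sample weights (0.879%). Of the differences, 4 members (sample weights, 3.28% of all genes) and 2 (without low-correlation libraries, 1.63%) were called between times in PT-S1, and between segments at 24 h 1 (random effect, 0.482%), 12 (sample weights, 13.4%), 1 (without low-correlation libraries, 1.64%) and 1 (replicate block, 0.118%). Signs were compared for the genes named by p or by sham level. They turned for Etfa in PT-S1 24 h (-0.064 without low-correlation libraries). In PT-S1 72 h they turned for Mgll (0.014 with quantile and 0.033 with median-ratio scaling), Hadha (0.042 with sample weights) and Acot4 (0.030 without low-correlation libraries). In CCD 24 h the sign turned for Ucp2 (-0.0025 with the replicate block or without sham animal 4). The Ucp2 change ranged from there to 0.114 over the animals left out. Other members turned too without low-correlation libraries, such as Hadhb (-0.043) and Decr2 (-0.050) in PT-S1 24 h. In PT-S1 72 h, 39 of 44 members then had a higher mean in UNx, against 11 with all libraries. The cause was not tested.

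With each animal left out in turn, members called ranged from 0 to 2 in PT-S1 24 h (2 without UNx animal 4) and were 0 in the other tables. Members with UNx higher without overlap ranged from 13 to 20 in PT-S1 24 h (all genes 3.28% to 7.13%; 20 without UNx animal 4, beside 5.02%), 9 to 14 in CCD 24 h (7.04% to 9.70%) and 1 to 7 in CCD 72 h (4.03% to 5.61%; 3 without sham animal 1, 2 without sham animal 4 and 7 without UNx animal 2). With UNx lower they ranged from 0 to 3 in PT-S1 24 h (13.2% to 27.7%; 3 of 45 without sham animal 3, beside the 27.7%), 0 to 1 in PT-S1 72 h (5.52% to 9.98%) and 0 to 3 in CCD 24 h (11.2% to 15.9%; 3 of 44 without UNx animal 2, beside the 15.9%); fewer animals overlap less easily. Differences called between segments at 24 h ranged from 0 to 3 (0% to 1.49% of all genes).

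Same-numbered animals were not shown to be paired: the correlations of their deviations ranged from -0.366 to 0.328, and the replicate block moved the genes called from 0 to 81 in PT-S1 24 h and from 136 to 0 in CCD 24 h. With 3 to 5 animals a group, unknown depth and TPM near 1 for some members, small changes could have been missed. The size of change that could be detected was not measured.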

Other observations

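Creb3l3, whose product is a membrane-bound transcription factor of liver and intestine, was too low to be tested in any table. In PT-S1 24 h it was at 0.228, 0.206 and 0.453 TPM in the sham animals and at 0.622, 0.427, 0.996 and 0.436 TPM in the UNx animals. Cpt1b in PT-S1 24 h was at 0.240, 0.411 and 0.0749 TPM in sham and at 0.850, 0.211, 4.65 and 0.444 TPM in UNx animals, so that it entered the test through UNx animal 3. In PT-S1 72 h the highest Cpt1b value of any animal was 0.292 TPM.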
